A study of Homo sapiens with 8 samples.

Results

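The genes described here are the enzymes and carriers that take up glucose, split it to pyruvate, pass pyruvate to lactate or to pyruvate dehydrogenase, and feed the pentose phosphate pathway. They were taken by gene name from a list of 34, in ribosome profiling of BJ-HRAS cells, a derivative of the BJ human skin fibroblast line. Of the 34 genes, 29 were listed among the 11940 genes of the 2 deposited tables and 28 were listed in both. The exceptions were PFKL, PFKFB2, LDHB, SLC16A3 and PGLS, listed in neither table, and PGAM1, listed only in the table without 4-OHT and at 0 to 3 reads there.

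Ribosome profiling sequences the short mRNA fragments that ribosomes protect from nuclease. The 8 libraries form 4 groups of 2, namely SNORA13 knockout (KO) clones 66 and 69 with 4-OHT, wild-type (WT) clones 15 and 54 with 4-OHT, and the same KO and WT clones without it. Clones given 4-OHT, (Z)-4-hydroxytamoxifen, had 100 nM of it for 7 days. The labels call every clone BJ-HRAS and do not describe the HRAS construct; 4-OHT binds the oestrogen receptor, and fusion proteins that carry the receptor's hormone-binding part can be activated with it. SNORA13 is a small nucleolar RNA, and as it is not listed in the tables the knockout was not checked here. Each genotype is 2 clones of 1 cell line, with 1 library per clone and treatment. The p-values thus measure the spread between such libraries, where clone differences and counting error are not separated. The libraries with and without 4-OHT stand in separate tables, so 4-OHT and any difference between the tables cannot be told apart. Footprints follow mRNA level and ribosome load together, and these are not separated here.

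Glycolysis turns glucose into pyruvate in a hexose phase that spends ATP and a triose phase that regains it. Lactate dehydrogenase then regenerates NAD+ in the cytosol, while pyruvate dehydrogenase, held off by its kinases, admits carbon to mitochondria. The pentose phosphate pathway branches from glucose 6-phosphate to make NADPH and ribose, and transketolase and transaldolase return its sugars to glycolysis. Cultured fibroblasts are known to use glycolysis heavily, and its genes are textbook targets of hypoxia-inducible factor and MYC.

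Values are RPKM, reads per kilobase of gene scaled to the library's total reads, where the length that fits the values is the whole gene with its introns. Levels are therefore compared between libraries and not between genes. GAPDH, PGAM1, PGK1, LDHA, ENO1 and TPI1 have near-identical processed pseudogenes, and how reads shared with these were counted is not stated, so their levels are uncertain. Recovered depth ran from 190307 reads, in KO clone 66 with 4-OHT, to 1709421 reads in KO clone 69 without 4-OHT. KO clone 66 with 4-OHT listed 3169 of 11079 genes at 0, so its values for the weaker genes rest on few reads. All 16 fibroblast markers were listed, at 2.96 to 3.6% of reads with 4-OHT and 7.48 to 9.56% without. Leukocyte, epithelial, keratinocyte and endothelial markers, each list summed on its own, held at most 0.0409% of reads in any library, and 0 of 5 melanocyte markers were listed. The part of the lower fibroblast marker share in the changes with 4-OHT was not tested, and in bulk libraries fewer cells of a type and less RNA per cell cannot be told apart.

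With 4-OHT, most of these genes had more footprints in both genotypes. Of the 28 genes tested, 16 were higher and 2 lower with 4-OHT in KO clones, and 15 were higher and 0 lower in WT clones (limma-trend on log2(RPKM + 1), Benjamini-Hochberg adjusted p under 0.05). Over the 8685 genes of the same fit, 17.3% were higher and 10.7% lower in KO clones, and 13.7% were higher and 8.18% lower in WT clones. Among the calls of the 28 genes, PDK3 in both genotypes and PFKFB4 in KO were favoured by the read filter. These genes would not have met it without the libraries with 4-OHT. The median log2 fold change of the 28 genes was 0.73 in KO clones and 0.69 in WT clones, against 0.05 and 0.06 over all genes. At an unadjusted p under 0.05, the single WT gene that was lower was SLC2A1, which limma-voom on recovered reads also called lower. The listed genes held 2.05 and 2.23% of recovered reads in KO clones 66 and 69 with 4-OHT and 2.21 and 2.25% in WT clones 15 and 54 with 4-OHT. Without 4-OHT they held 1.06 and 1.05% in the KO clones and 1.11 and 1.00% in the WT clones. The 4 libraries with 4-OHT thus all lay above the 4 without it.

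The 14 genes called higher in both genotypes make up 87.5% of those called in KO and 93.3% of those called in WT. The same shares were not counted over all genes, so the overlap is not shown to be particular to the listed genes. PFKFB4 and RPIA passed only the KO test, and PGK1 only the WT test, and the test of the difference between genotypes passed for none of them. The WT count of higher genes was 6 without WT clone 54 from the libraries without 4-OHT, and 9 without WT clone 54 from those with it, where 5.62 and 6.16% of all genes were higher. The KO count of higher genes was 10 without KO clone 66 from the libraries without 4-OHT, and 14 without the shallow library of KO clone 66 with 4-OHT, where 7.69 and 14.5% of all genes were higher. Called under each of the alternative analyses were ENO1, GAPDH, PDK1, TALDO1 and TPI1 in both genotypes, ENO2 in WT, and ALDOC, PDK3 and SLC2A1 in KO. Of these, PDK3 met the read filter only through the libraries with 4-OHT. With only the 4 KO libraries in the fit, 9 of these genes and 9.84% of all genes were higher in KO, and PFKP, ALDOA, PFKFB4, ENO2, PKM, PDHA1 and RPIA no longer passed (adjusted p = 0.0507 to 0.0781). By limma-voom HK1, PGK1 and GPI passed as higher in KO as well (adjusted p = 0.022, 0.0178 and 0.0155), and PFKM and RPIA in WT (adjusted p = 0.0119 and 0.0279).

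**Figure D1:**
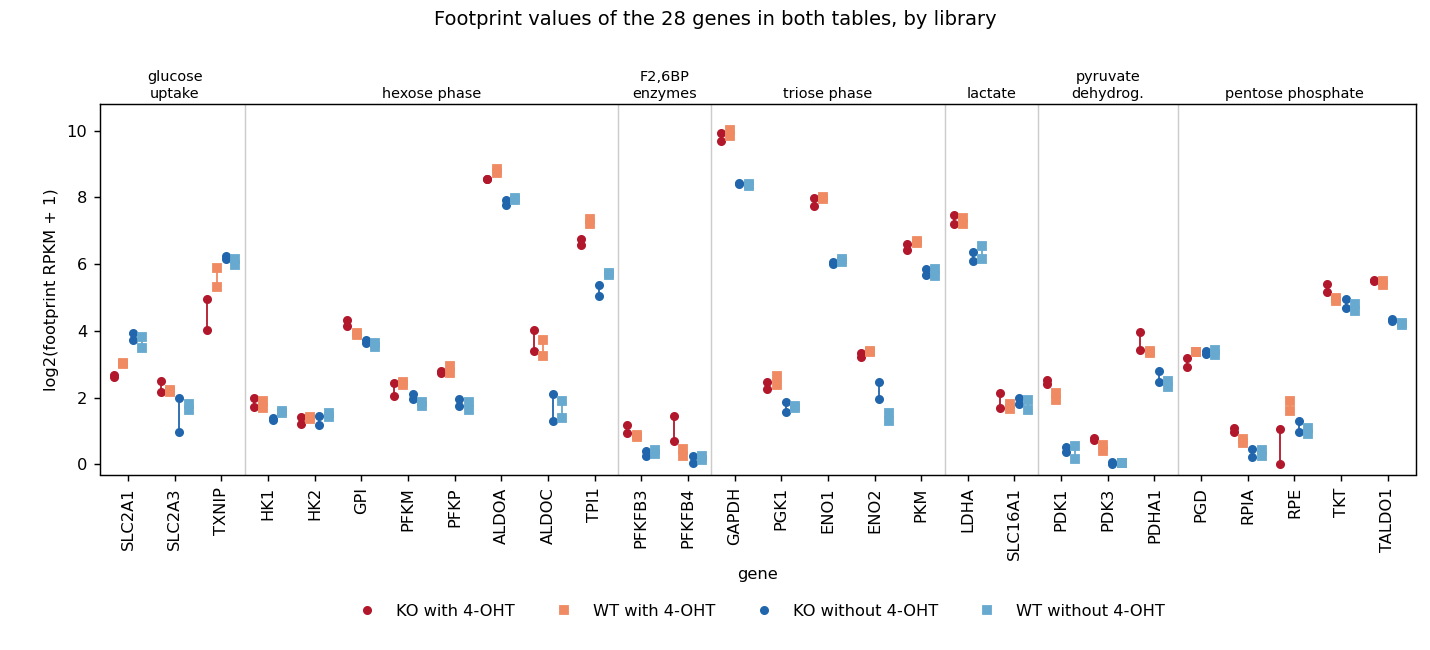
log2(RPKM + 1) of the 28 genes in each of the 8 libraries, ordered by pathway step, with 1 point per clone and a line joining the 2 clones of a group; F2,6BP stands for fructose 2,6-bisphosphate. GAPDH, ENO1, TPI1, PDK1 and TALDO1 show the libraries with 4-OHT clear of those without, and SLC2A1 and TXNIP show them below.

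Glucose enters fibroblasts through facilitative carriers. SLC2A1 (GLUT1), the widely expressed basal glucose carrier, had 5.42 and 5.12 RPKM in KO clones 66 and 69 with 4-OHT, against 12.3 and 14.3 RPKM in the same clones without it. In WT clones 15 and 54 it had 7.26 and 7.08 RPKM with 4-OHT, against 13.2 and 10.3 RPKM without it. All 4 libraries with 4-OHT were below the 4 without, with no overlap. SLC2A1 fell in KO clones (log2 fold change -1.19 ± 0.19, SE, adjusted p = 0.00439). In WT clones its log2 fold change was -0.63 ± 0.19 (SE), with adjusted p = 0.0533. The WT value passed when libraries were rescaled by median ratios (adjusted p = 0.0166) and by limma-voom (adjusted p = 0.0053).

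SLC2A3 (GLUT3), a carrier of high glucose affinity best known in neurons, pointed the other way. It had 4.63 and 3.48 RPKM in KO clones with 4-OHT, against 0.981 and 2.96 RPKM without it, and 3.74 and 3.504 RPKM in WT clones with 4-OHT, against 2.50 and 2.09 RPKM without it. The groups did not overlap in either genotype, but the log2 fold changes of 0.84 ± 0.33 in KO and 0.49 ± 0.33 in WT (SE) had adjusted p-values of 0.0967 and 0.335. KO clone 66 without 4-OHT, with 15 reads, was the low value. Without KO clone 69 from the libraries without 4-OHT the KO value of SLC2A3 passed (adjusted p = 0.0221). Within each library the ratio of SLC2A1 to SLC2A3 was 1.17 and 1.47 in KO clones with 4-OHT, against 12.6 and 4.84 without it. In WT clones the ratio was 1.94 and 2.02 with 4-OHT, against 5.27 and 4.95 without it. Every ratio with 4-OHT was thus below every ratio without it. A ratio within a library is free of that library's scaling, though not of changes related to gene length, which are described below. The ratio of 12.6 rested on 15 SLC2A3 reads. Whether the 2 carriers changed unequally was not tested.

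TXNIP (thioredoxin-interacting protein) removes SLC2A1 from the cell surface and is itself induced by glucose. It had 30.2 and 15.4 RPKM in KO clones with 4-OHT, against 75.3 and 69.9 RPKM without it. In WT clones it had 57.6 and 39.1 RPKM with 4-OHT, against 62.5 and 70.4 RPKM without it. The KO clones with 4-OHT were the lowest of the 8 libraries, and in both genotypes the groups with and without 4-OHT did not overlap. TXNIP fell in KO clones (log2 fold change -1.70 ± 0.32, SE, adjusted p = 0.00834), while the WT value of -0.47 ± 0.32 (SE) had adjusted p = 0.343. Without KO clone 66 from the libraries without 4-OHT, the KO value had adjusted p = 0.0537. KO clone 66 with 4-OHT gave only 24 TXNIP reads.

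The promoter of TXNIP is known to carry a carbohydrate response element, a pair of E-box-like sites read by MLX and its glucose-sensing partners. The 250 bases before its annotated start are shown because they hold it. They lie at chr1:145996580-145996829 on the minus strand of GRCh38.p14 (RefSeq), and capitals mark the match to 2 copies of CACGNG (N is any base) parted by 5 bases, whose first base is 88 bases before the start:
TXNIP: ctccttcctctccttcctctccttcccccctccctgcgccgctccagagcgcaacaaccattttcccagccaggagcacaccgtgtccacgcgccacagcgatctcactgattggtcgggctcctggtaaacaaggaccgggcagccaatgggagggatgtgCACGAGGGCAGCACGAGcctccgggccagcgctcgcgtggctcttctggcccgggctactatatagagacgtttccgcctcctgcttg
Searched on both strands, this motif was in 0.0456% of 35116 promoter windows of that length. TXNIP was the only listed gene with a match, in 1 of its 2 windows. The motif was chosen after the tables were seen.

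In the hexose phase, 4 of 8 genes tested were higher with 4-OHT in each genotype and none was lower. These were PFKP, ALDOA, ALDOC and TPI1 in both. Of all genes, 17.3% were higher and 10.7% lower in KO, and 13.7% were higher and 8.18% lower in WT. The median log2 fold change over the 8 genes was 0.62 in KO clones and 0.74 in WT clones. HK1 and HK2 are the hexokinases that trap glucose as glucose 6-phosphate. HK1 had 2.98 and 2.29 RPKM in KO clones with 4-OHT, against 1.51 and 1.60 RPKM without it, and 2.77 and 2.21 RPKM in WT clones with 4-OHT, against 2.06 and 1.92 RPKM without it. HK2 had 1.32 and 1.66 RPKM in KO clones with 4-OHT, against 1.25 and 1.76 RPKM without it. In WT clones HK2 had 1.57 and 1.66 RPKM with 4-OHT, against 1.90 and 1.70 RPKM without it. Neither hexokinase passed the test, with log2 fold changes of 0.50 ± 0.20 (HK1) and 0.00 ± 0.20 (HK2) in KO clones (SE).

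The ratio of HK2 to HK1 within a library was 0.444 and 0.728 in KO clones with 4-OHT, against 0.827 and 1.10 without it, and 0.566 and 0.749 in WT clones with 4-OHT, against 0.922 and 0.889 without it. The ratio was thus lower with 4-OHT in both genotypes, with no overlap. GPI, which isomerises glucose 6-phosphate to fructose 6-phosphate, had 18.9 and 16.6 RPKM in KO clones with 4-OHT, against 11.6 and 12.2 RPKM without it. In WT clones GPI had 13.6 and 14.3 RPKM with 4-OHT, against 11.4 and 10.4 RPKM without it. These groups did not overlap either, and the log2 fold changes were 0.54 ± 0.17 in KO (SE, adjusted p = 0.0509) and 0.33 ± 0.17 in WT (SE, adjusted p = 0.212). The KO value of GPI passed by limma-voom (adjusted p = 0.0155), with no filter on low values (adjusted p = 0.0455) and without KO clone 69 from the libraries with 4-OHT (adjusted p = 0.0428).

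Phosphofructokinase sets the pace of glycolysis, and of its subunits PFKP (platelet type) and PFKM (muscle type) were listed. PFKP had 5.67 and 5.999 RPKM in KO clones with 4-OHT, against 2.37 and 2.89 RPKM without it. In WT clones PFKP had 5.69 and 6.67 RPKM with 4-OHT, against 2.63 and 2.10 RPKM without it. It rose in both genotypes, with log2 fold changes of 0.92 ± 0.20 in KO (SE, adjusted p = 0.0136) and 1.09 ± 0.20 in WT (SE, adjusted p = 0.00805). The KO call was lost without KO clone 66 from the libraries without 4-OHT (adjusted p = 0.0878). The WT call was lost without WT clone 54 from either table (adjusted p = 0.0708 without 4-OHT and 0.0635 with it). PFKM had 4.48 and 3.18 RPKM in KO clones with 4-OHT, against 3.36 and 2.86 RPKM without it, and 4.20 and 4.60 RPKM in WT clones with 4-OHT, against 2.62 and 2.38 RPKM without it. The KO groups of PFKM overlapped, and neither value passed (log2 fold change 0.22 ± 0.21 in KO and 0.62 ± 0.21 in WT, SE, adjusted p = 0.459 and 0.0749).

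PFKFB3 and PFKFB4 make and break fructose 2,6-bisphosphate, the strongest allosteric activator of phosphofructokinase. PFKFB3 had 0.925 and 1.29 RPKM in KO clones with 4-OHT, against 0.318 and 0.200 RPKM without it. In WT clones it had 0.844 and 0.768 RPKM with 4-OHT, against 0.342 and 0.251 RPKM without it. No library with 4-OHT overlapped one without. PFKFB3 rose in KO clones by 0.74 ± 0.14 on the log2(RPKM + 1) scale (SE, adjusted p = 0.00755) and in WT clones by 0.48 ± 0.14 (SE, adjusted p = 0.0443), a scale that understates the change of so low a gene. Without KO clone 69 from the libraries without 4-OHT the KO value had adjusted p = 0.0542. The WT call was lost without each of the 4 WT libraries in turn (adjusted p = 0.138 to 0.238) and with clone as a block (adjusted p = 0.0882). It was lost as well with a pseudocount of 0.1 (adjusted p = 0.0576), with no filter (adjusted p = 0.0739) and with median-ratio scaling (adjusted p = 0.0854).

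PFKFB4 rested on few reads. Without the libraries with 4-OHT it would not have met the filter of 10 reads in 2 libraries. It had 1.74 and 0.625 RPKM in KO clones with 4-OHT (15 and 28 reads), against 0.0283 and 0.194 RPKM without it (1 and 15 reads). In WT clones it had 0.182 and 0.391 RPKM with 4-OHT (14 and 10 reads), against 0.0967 and 0.194 RPKM without it (6 and 7 reads). KO clone 66 with 4-OHT was the high value, and the WT groups overlapped. PFKFB4 rose in KO clones (log2(RPKM + 1) change 0.93 ± 0.23, SE, adjusted p = 0.0224), and its WT value of 0.16 ± 0.23 (SE) had adjusted p = 0.664. With a pseudocount of 0.1 the KO change of PFKFB4 was 2.57 (log2, adjusted p = 0.0231). The KO call was lost without either KO clone from the libraries without 4-OHT (adjusted p = 0.127 for clone 66 and 0.0569 for clone 69).

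Aldolase splits fructose 1,6-bisphosphate into 2 trioses. ALDOA, the ubiquitous form, had 372 and 377 RPKM in KO clones with 4-OHT, against 240.5 and 219.6 RPKM without it. In WT clones ALDOA had 428 and 463 RPKM with 4-OHT, against 253 and 242 RPKM without it. Clones of a group lay close together, and ALDOA rose by 0.70 ± 0.16 in KO (log2, SE, adjusted p = 0.0183) and 0.84 ± 0.16 in WT (log2, SE, adjusted p = 0.0106). The KO call was lost without KO clone 66 from either table or KO clone 69 without 4-OHT (adjusted p = 0.0675 to 0.0899), and with median-ratio scaling (adjusted p = 0.161). The WT call was lost without WT clone 15 or 54 from the libraries without 4-OHT (adjusted p = 0.0656 and 0.0837), and with median-ratio scaling (adjusted p = 0.0574). ALDOC, the form best known in brain, had 9.56 and 15.4 RPKM in KO clones with 4-OHT, against 1.45 and 3.35 RPKM without it. In WT clones ALDOC had 8.51 and 12.4 RPKM with 4-OHT, against 2.76 and 1.65 RPKM without it.

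ALDOC rose by 2.01 ± 0.37 in KO (log2, SE, adjusted p = 0.00725) and 1.84 ± 0.37 in WT (log2, SE, adjusted p = 0.0121), from 5 to 57 reads a library. The WT call was lost without WT clone 54 from either table (adjusted p = 0.0907 without 4-OHT and 0.088 with it). The ratio of ALDOC to ALDOA was 0.0257 and 0.0409 in KO clones with 4-OHT, against 0.00601 and 0.0153 without it. In WT clones it was 0.0199 and 0.0268 with 4-OHT, against 0.0109 and 0.0068 without it. The ratio was higher with 4-OHT in both genotypes, and the 4 libraries with 4-OHT did not overlap the 4 without. TPI1, which interconverts the 2 trioses, had 94.4 and 108 RPKM in KO clones with 4-OHT, against 32.1 and 40.3 RPKM without it, and 146 and 162 RPKM in WT clones with 4-OHT, against 50.4 and 52.8 RPKM without it. TPI1 rose by 1.46 ± 0.18 in KO (log2, SE, adjusted p = 0.00178) and 1.56 ± 0.18 in WT (log2, SE, adjusted p = 0.00172).

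**Figure D2:**
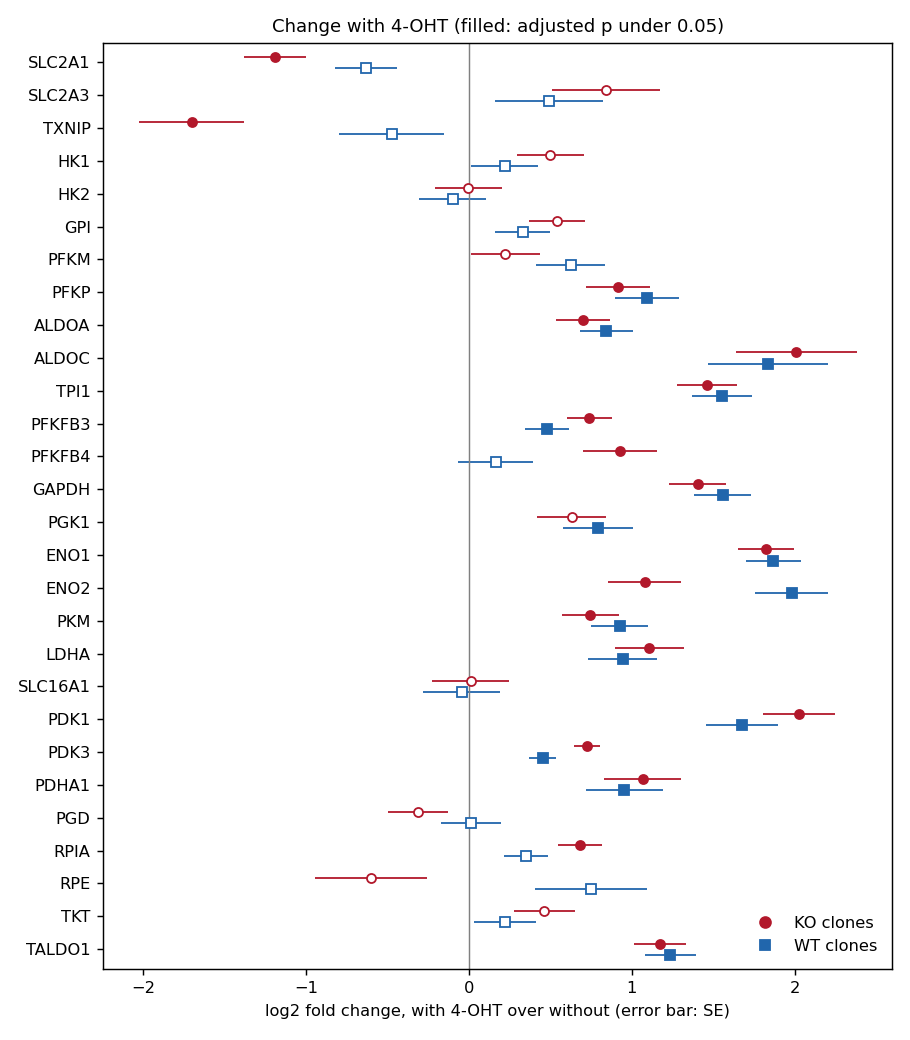
log2 fold change of each of the 28 genes, with 4-OHT over without, in KO clones (circles) and WT clones (squares), with SE bars from the 8-library fit; filled marks have adjusted p under 0.05. The filled marks lie right of 0 for 16 genes in KO and 15 in WT, and left of 0 for SLC2A1 and TXNIP in KO.

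In the triose phase, 4 of 5 genes tested were higher with 4-OHT in KO clones and 5 of 5 in WT clones. Their median log2 fold change was 1.08 in KO and 1.56 in WT. Of all genes, 17.3% were higher in KO and 13.7% in WT. GAPDH oxidises glyceraldehyde 3-phosphate and makes NADH. It had 834 and 971 RPKM in KO clones with 4-OHT, against 336 and 342 RPKM without it, and 922 and 1029.2 RPKM in WT clones with 4-OHT, against 325 and 335 RPKM without it. GAPDH thus separated cleanly by treatment, rising by 1.41 ± 0.18 in KO (log2, SE, adjusted p = 0.00167) and 1.56 ± 0.18 in WT (log2, SE, adjusted p = 0.00134). With the trend over gene span removed, described below, the change of GAPDH was 0.76 in KO and 0.90 in WT (log2). PGK1, the first ATP-making step, had 3.76 and 4.56 RPKM in KO clones with 4-OHT, against 2.69 and 1.99 RPKM without it. In WT clones PGK1 had 5.26 and 4.21 RPKM with 4-OHT, against 2.24 and 2.36 RPKM without it. The groups did not overlap, but PGK1 passed only in WT (log2 fold change 0.79 ± 0.21, SE, adjusted p = 0.0359), and the KO value was 0.63 ± 0.21 (SE, adjusted p = 0.063). Its WT call was lost with clone as a block (adjusted p = 0.0786), with median-ratio scaling (adjusted p = 0.1) and without each of the 4 WT libraries in turn (adjusted p = 0.0876 to 0.172).

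Enolase makes phosphoenolpyruvate. ENO1, the ubiquitous enolase, had 211 and 251 RPKM in KO clones with 4-OHT, against 63.3 and 65.4 RPKM without it. In WT clones ENO1 had 247 and 260.1 RPKM with 4-OHT, against 71.0 and 66.4 RPKM without it. It had the lowest adjusted p of the 28 genes in both genotypes, with log2 fold changes of 1.82 ± 0.17 in KO (SE, adjusted p = 0.000646) and 1.87 ± 0.17 in WT (SE, adjusted p = 0.00066). ENO2, the enolase used as a neuronal marker, had 8.39 and 9.13 RPKM in KO clones with 4-OHT, against 4.50 and 2.87 RPKM without it. In WT clones ENO2 had 9.43 and 9.60 RPKM with 4-OHT, against 1.45 and 1.89 RPKM without it. The levels with 4-OHT were close in the 4 libraries, whereas without it the KO clones were the higher ones.

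ENO2 rose by 1.08 ± 0.23 in KO (log2, SE, adjusted p = 0.0119) and 1.98 ± 0.23 in WT (log2, SE, adjusted p = 0.00139). Without KO clone 69 from the libraries without 4-OHT the KO value had adjusted p = 0.0624. PKM, the pyruvate kinase of most tissues, had 84.5 and 97.2 RPKM in KO clones with 4-OHT, against 56.9 and 50.7 RPKM without it, and 103 and 98.7 RPKM in WT clones with 4-OHT, against 56.4 and 49.0 RPKM without it. PKM rose by 0.74 ± 0.18 in KO (log2, SE, adjusted p = 0.019) and 0.92 ± 0.18 in WT (log2, SE, adjusted p = 0.00968). The KO call of PKM was lost with median-ratio scaling (adjusted p = 0.14), without either KO clone from the libraries without 4-OHT, and without KO clone 69 with 4-OHT (adjusted p = 0.0525 to 0.0896). The WT call was lost without WT clone 54 from the libraries without 4-OHT (adjusted p = 0.0807).

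At the lactate branch LDHA, the lactate dehydrogenase subunit that favours lactate formation, had 148 and 177 RPKM in KO clones with 4-OHT, against 81.7 and 67.9 RPKM without it. In WT clones LDHA had 167 and 147 RPKM with 4-OHT, against 93.2 and 70.4 RPKM without it. No library with 4-OHT overlapped one without. LDHA rose by 1.11 ± 0.21 in KO (log2, SE, adjusted p = 0.00874) and 0.94 ± 0.21 in WT (log2, SE, adjusted p = 0.0192). Without KO clone 69 from the libraries without 4-OHT the KO value had adjusted p = 0.0514. The WT call was lost with median-ratio scaling (adjusted p = 0.073), without WT clone 54 from either table, and without WT clone 15 with 4-OHT (adjusted p = 0.0629 to 0.134). SLC16A1 (MCT1), which carries lactate and protons across the plasma membrane, stayed near its level without 4-OHT. It had 2.24 and 3.46 RPKM in KO clones with 4-OHT, against 3.01 and 2.54 RPKM without it, and 2.54 and 2.14 RPKM in WT clones with 4-OHT, against 2.12 and 2.79 RPKM without it. These groups overlapped in both genotypes, with log2 fold changes of 0.01 ± 0.24 in KO and -0.04 ± 0.24 in WT (SE, adjusted p = 0.979 and 0.917).

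Promoter windows of 2 enzymes that rose in both genotypes are shown because they hold the E-box CACGTG, the sequence bound by MYC with MAX, which also contains the hypoxia response core ACGTG. Each is the 250 bases before an annotated RefSeq start in GRCh38.p14, outside the span of the gene, read 5′ to 3′ on the gene's strand with the E-box in capitals. The LDHA window lies at chr11:18394313-18394562 on the plus strand and the ALDOC window at chr17:28576896-28577145 on the minus strand:
LDHA: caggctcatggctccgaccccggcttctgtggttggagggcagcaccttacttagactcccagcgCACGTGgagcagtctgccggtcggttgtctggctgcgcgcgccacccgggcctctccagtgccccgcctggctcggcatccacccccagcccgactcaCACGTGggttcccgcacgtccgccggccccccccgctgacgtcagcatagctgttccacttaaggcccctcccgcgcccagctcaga
ALDOC: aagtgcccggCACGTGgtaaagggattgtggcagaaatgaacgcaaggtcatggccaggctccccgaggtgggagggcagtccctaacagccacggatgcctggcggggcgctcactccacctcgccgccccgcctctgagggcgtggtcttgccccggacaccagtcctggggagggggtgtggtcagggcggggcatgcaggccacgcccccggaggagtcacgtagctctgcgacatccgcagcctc
LDHA held 2 copies, beginning 185 and 87 bases before the start, and ALDOC held 1 copy, beginning 240 bases before it. Only 1 of the 2 LDHA windows held CACGTG, and ALDOC has 1 window. CACGTG reads the same on both strands, so each copy counts once. Among 58 windows of 31 of the 34 genes, 6 held CACGTG, or 10.3%, against 6.34% of all 35116 windows. The genes were ALDOA, ALDOC, GAPDH, HK2, LDHA and PFKFB3. The core ACGTG, on either strand, was in 34.5% of these windows and 18.5% of all windows. A match describes letters only. HK2, whose footprints did not pass the test in either genotype, also holds the E-box.

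At pyruvate dehydrogenase, 3 of 3 genes were higher with 4-OHT in each genotype, against 17.3% of all genes in KO and 13.7% in WT. PDHA1 is the catalytic subunit that admits pyruvate carbon to mitochondria, and PDK1 and PDK3 are kinases that switch it off. PDK1 had 4.28 and 4.83 RPKM in KO clones with 4-OHT, against 0.442 and 0.288 RPKM without it, and 2.85 and 3.38 RPKM in WT clones with 4-OHT, against 0.474 and 0.120 RPKM without it. The groups lay far apart, and on the log2(RPKM + 1) scale PDK1 rose by 2.02 ± 0.22 in KO (SE, adjusted p = 0.00106) and 1.68 ± 0.22 in WT (SE, adjusted p = 0.00241). At these low levels that scale understates the change, which was 3.34 in KO and 3.17 in WT with a pseudocount of 0.1 and 3.77 in KO and 3.44 in WT by limma-voom (log2). PDK3 had 0.738 and 0.657 RPKM in KO clones with 4-OHT (12 and 55 reads), against 0 and 0.0549 RPKM without it (0 and 8 reads). In WT clones PDK3 had 0.501 and 0.319 RPKM with 4-OHT (72 and 16 reads), against 0.0266 and 0.0297 RPKM without it (3 and 2 reads). PDK3 was therefore near the limit of counting without 4-OHT in all 4 clones.

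PDK3 rose by 0.72 ± 0.08 in KO (SE, adjusted p = 0.00115) and 0.45 ± 0.08 in WT (SE, adjusted p = 0.00805) on the log2(RPKM + 1) scale. Its WT call was lost without WT clone 15 or 54 from the libraries without 4-OHT (adjusted p = 0.0637 and 0.0679). PDHA1 had 14.7 and 9.77 RPKM in KO clones with 4-OHT, against 4.54 and 5.94 RPKM without it. In WT clones PDHA1 had 9.52 and 9.15 RPKM with 4-OHT, against 4.63 and 4.05 RPKM without it. The enzyme subunit thus moved in the same direction as its kinases, rising by 1.07 ± 0.24 in KO (log2, SE, adjusted p = 0.0151) and 0.96 ± 0.24 in WT (log2, SE, adjusted p = 0.0275). Its KO call was lost without KO clone 66 from either table (adjusted p = 0.0963 without 4-OHT and 0.0502 with it). Its WT call was lost with clone as a block (adjusted p = 0.0636), with median-ratio scaling (adjusted p = 0.063) and without each of the 4 WT libraries in turn (adjusted p = 0.0983 to 0.15).

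In the pentose phosphate pathway, 2 of 5 genes tested were higher with 4-OHT in KO clones and 1 of 5 in WT clones. The shares over all genes were 17.3% in KO and 13.7% in WT. TALDO1, the transaldolase that links the pathway to glycolysis, had 44.1 and 44.7 RPKM in KO clones with 4-OHT, against 18.7 and 19.5 RPKM without it. In WT clones TALDO1 had 44.3 and 40.9 RPKM with 4-OHT, against 17.3 and 17.7 RPKM without it. It rose by 1.17 ± 0.16 in KO (log2, SE, adjusted p = 0.00223) and 1.24 ± 0.16 in WT (log2, SE, adjusted p = 0.00217). TKT, the transketolase, had 41.7 and 34.7 RPKM in KO clones with 4-OHT, against 25.0 and 29.8 RPKM without it, and 30.5 and 28.7 RPKM in WT clones with 4-OHT, against 27.3 and 23.3 RPKM without it. TKT was higher with 4-OHT in all 4 clones, with no overlap in either genotype, and did not pass the test (log2 fold change 0.46 ± 0.19 in KO and 0.22 ± 0.19 in WT, SE, adjusted p = 0.109 and 0.454).

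PGD, the second NADPH-making step, had 8.06 and 6.50 RPKM in KO clones with 4-OHT, against 9.51 and 8.995 RPKM without it. In WT clones PGD had 9.34 and 9.34 RPKM with 4-OHT, against 9.84 and 8.67 RPKM without it. PGD was lower in both KO clones with 4-OHT without passing the test (log2 fold change -0.31 ± 0.18, SE, adjusted p = 0.238), but passed as lower with median-ratio scaling (adjusted p = 0.0469). RPIA, which makes ribose 5-phosphate, had 0.973 and 1.12 RPKM in KO clones with 4-OHT, against 0.168 and 0.385 RPKM without it, and 0.680 and 0.573 RPKM in WT clones with 4-OHT, against 0.192 and 0.363 RPKM without it. The groups did not overlap; RPIA rose in KO by 0.68 ± 0.14 (log2(RPKM + 1), SE, adjusted p = 0.00982), and its WT value was 0.35 ± 0.14 (SE, adjusted p = 0.11). With a pseudocount of 0.1 the KO change of RPIA was 1.66 (log2, adjusted p = 0.0291). Without KO clone 66 from the libraries without 4-OHT the KO value of RPIA had adjusted p = 0.0851. RPE, the epimerase of ribulose 5-phosphate, had 0 and 1.09 RPKM in KO clones with 4-OHT (0 and 21 reads), against 0.957 and 1.46 RPKM without it (17 and 49 reads). In WT clones RPE had 2.02 and 2.76 RPKM with 4-OHT (66 and 32 reads), against 1.11 and 0.899 RPKM without it (29 and 14 reads). RPE thus overlapped between the KO groups and was higher with 4-OHT in both WT clones, and neither value passed (log2 fold change -0.60 ± 0.35 in KO and 0.75 ± 0.35 in WT, SE, adjusted p = 0.231 and 0.17). Without KO clone 69 from the libraries with 4-OHT the KO value of RPE passed as lower (log2 fold change -1.13, adjusted p = 0.013), with clone 66 and its 0 reads as the only KO library with 4-OHT.

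The 0 for RPE came from the shallow library of KO clone 66 with 4-OHT, where a count of 0 allows up to 0.803 RPKM (3 reads, counting error only). Counting each clone on its own, 21 of the 28 genes were higher and 3 lower with 4-OHT without overlap in KO, and 22 were higher and 3 lower in WT. Over all 8685 genes these shares were 36.9 and 25.8% in KO and 41.6 and 27.5% in WT.

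The change with 4-OHT was related to gene span, and several of these genes are compact. By RefSeq (GRCh38.p14) GAPDH spans chr12:6534517-6538371, TPI1 chr12:6867420-6870948 and ENO2 chr12:6914580-6923697, so that 3 genes called in both genotypes lie near each other on chromosome 12. ENO1 spans chr1:8861000-8878686, TALDO1 chr11:747464-765012 and LDHA chr11:18394563-18408425, whereas PDK1 takes up chr2:172555373-172724312. Over 697 genes with a span up to 5 kb, the median log2 fold change was 0.74 in KO clones and 0.72 in WT clones, and over 2890 genes longer than 60 kb it was -0.02 and -0.01. GAPDH, TPI1, ALDOC and TXNIP are in the shortest class, where their median was 1.43 in KO and 1.56 in WT. In the class from 5 to 20 kb the 8 listed genes, ENO1, ENO2, LDHA, ALDOA, PDHA1, TALDO1, RPE and SLC2A3, had a median of 1.07 in KO and 0.95 in WT, against 0.27 and 0.28 over 2261 genes. In the class above 60 kb HK1, PDK1, PDK3, PFKFB3 and PFKP had a median of 0.74 in KO and 0.48 in WT. The 11 genes of 20 to 60 kb had a median of 0.46 in KO and 0.22 in WT, against 0.08 and 0.09 over 2837 genes.

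With the trend over span subtracted from each library, an analysis chosen after the tables were seen, 14 of the 28 genes were higher and 2 lower in KO, and 11 were higher and 1 lower in WT. Over all genes in that analysis 11.9% were higher and 13.5% lower in KO, and 9.18% were higher and 10.6% lower in WT, so that lower calls outnumbered higher ones. Calls that did not survive this step were ALDOA in both genotypes (adjusted p = 0.338 in KO and 0.166 in WT), ENO2 in KO (adjusted p = 0.0654), and PGK1, LDHA and PDHA1 in WT (adjusted p = 0.0724, 0.0684 and 0.0749). GAPDH, TPI1 and ALDOC kept their calls with smaller changes. These were 0.76, 0.78 and 1.35 in KO and 0.90, 0.85 and 1.17 in WT (log2). ENO1 (1.63 in KO and 1.66 in WT) and PDK1 (2.05 in KO and 1.71 in WT) moved less in this step. SLC2A1 then passed as lower in WT (log2 fold change -0.74, adjusted p = 0.033). TXNIP had log2 fold changes of -2.32 in KO and -1.105 in WT (adjusted p = 0.00364 and 0.0623), both larger falls than as deposited. With median-ratio scaling, the shares of all genes turned to 1007 higher and 1335 lower in KO and 820 higher and 973 lower in WT, against 1502 and 932 in KO and 1193 and 710 in WT as deposited. Among the 28 genes, that scaling left 14 higher and 3 lower in KO and 10 higher and 1 lower in WT.

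**Figure D3:**
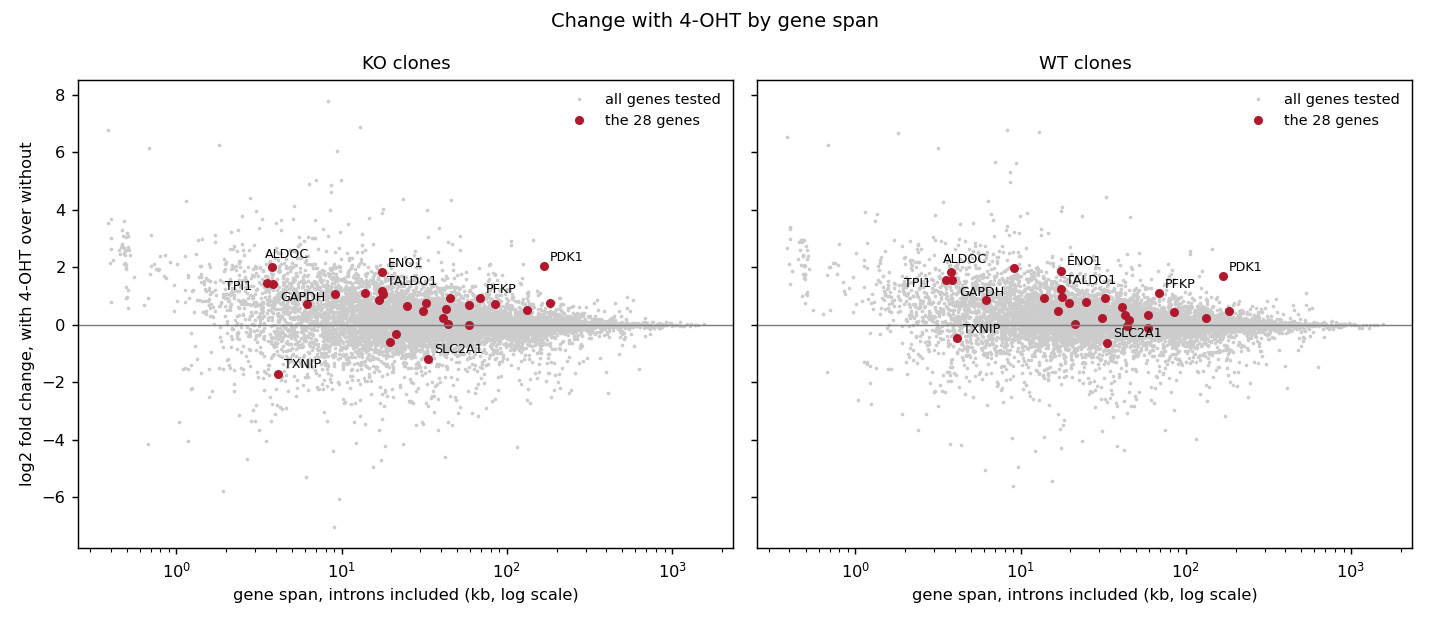
log2 fold change with 4-OHT over without, against gene span in kb with introns (log scale), in KO clones (left) and WT clones (right); grey points are all 8685 genes tested and red points the 28 genes. Short genes lie higher as a class, and PDK1, PFKP and SLC2A1 stand away from 0 at spans where the class median is near 0.

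SNORA13 KO and WT clones were then compared within each table. With 2 clones per genotype, the knockout and other differences between the clones cannot be told apart. The fit has 2 residual degrees of freedom, so a lack of calls does not show that the genotypes are alike. No gene passed in either table: 0 of 7653 genes with 4-OHT and 0 of 8055 without it, so the background was 0% in both. Of the listed genes, 28 were tested with 4-OHT and 26 without it, and the median log2 fold change, KO over WT, was -0.01 with 4-OHT and 0.04 without, against -0.01 over all genes in each. At an unadjusted p under 0.05 there were 4 of the 28 genes with 4-OHT (4.76% of all genes) and 2 of the 26 without it (8.44% of all genes). Limma-voom on recovered reads called 51 genes with 4-OHT, of which TXNIP was the only member, and 61 without it, none of them a member.

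TPI1 was the gene with an unadjusted p under 0.05 in both tables. It was lower in KO than in WT clones, with 94.4 and 108 RPKM in KO against 146 and 162 RPKM in WT with 4-OHT, and 32.1 and 40.3 RPKM in KO against 50.4 and 52.8 RPKM in WT without it. KO and WT clones did not overlap in either table, and the log2 fold changes were -0.60 ± 0.21 with 4-OHT and -0.51 ± 0.18 without (SE, adjusted p = 0.821 and 0.584). ENO2 was higher in KO clones without 4-OHT, at 4.50 and 2.87 RPKM in KO against 1.45 and 1.89 RPKM in WT (log2 fold change 0.79 ± 0.24, SE, adjusted p = 0.584). With 4-OHT the log2 fold change of ENO2 was -0.11 ± 0.22 (SE, adjusted p = 0.914).

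TXNIP, at 30.2 and 15.4 RPKM in KO clones against 57.6 and 39.1 RPKM in WT clones with 4-OHT, had a log2 fold change of -1.10 ± 0.38 (SE, adjusted p = 0.821). Limma-voom gave it -1.48 with adjusted p = 0.00155. SLC2A1, the carrier that TXNIP removes from the cell surface, was also lower in both KO clones with 4-OHT. It had 5.42 and 5.12 RPKM there, against 7.26 and 7.08 RPKM in WT clones (log2 fold change -0.38 ± 0.23, SE, adjusted p = 0.821). RPE was lower and PFKFB4 higher in KO clones with 4-OHT, with log2 fold changes of -1.22 ± 0.40 and 0.72 ± 0.28 (SE, adjusted p = 0.821 for each). Without KO clone 69 from the libraries with 4-OHT, which left the shallow library of clone 66 as the only KO library, RPE and PFKFB4 passed (adjusted p = 0.00347 and 0.00354). In that fit 249 genes were higher and 618 lower of 6601 tested.

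Clones that did not overlap between genotypes numbered 8 higher and 8 lower in KO of the 28 genes with 4-OHT, against 19.1 and 18.6% of all genes. Without 4-OHT they numbered 5 higher and 4 lower of the 26 genes, against 18.9 and 20.6% of all genes. ALDOA and TPI1 were on the lower side in KO in both tables, and GPI on the higher side. PDK1 and PDK3 were higher in KO with 4-OHT, at 4.28 and 4.83 RPKM in KO against 2.85 and 3.38 RPKM in WT for PDK1 (log2 fold change 0.43 ± 0.25, SE, adjusted p = 0.821). For PDK3 the log2 fold change was 0.27 ± 0.15 (SE, adjusted p = 0.821).

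**Figure D4:**
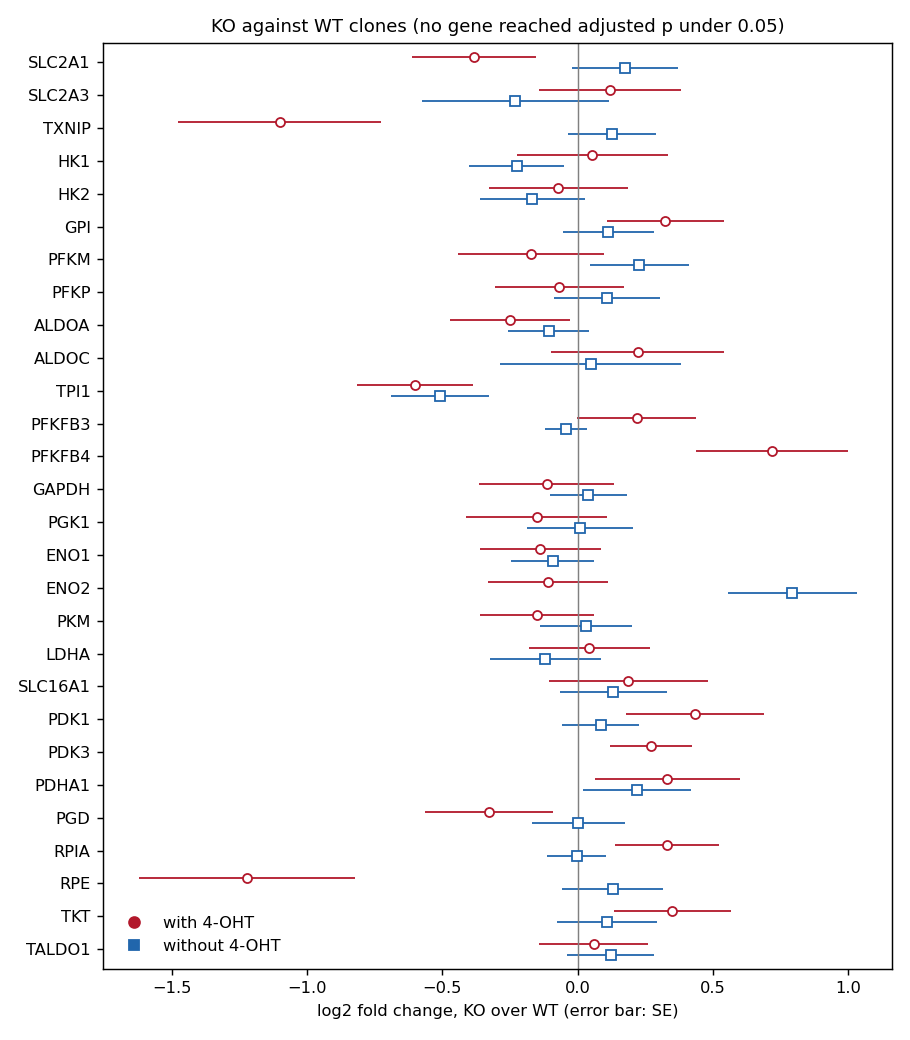
log2 fold change of KO over WT clones for each gene, with 4-OHT (circles) and without it (squares), with SE bars from the 4-library fit of each table; PFKFB4 and PDK3 were tested only with 4-OHT. Most values lie within 0.5 of 0, and no gene had an adjusted p under 0.05.

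The difference between the 4-OHT changes of KO and WT clones was tested in the 8-library fit, and 0 of 8685 genes passed. The median difference, KO minus WT, was 0.01 over the 28 genes and 0.00 over all genes. At an unadjusted p under 0.05 there were 5 of the 28 genes, against 5.20% of all genes, and limma-voom called 4 genes, none of them a member. TXNIP had a difference of -1.23 ± 0.46, RPE of -1.35 ± 0.49 and ENO2 of -0.90 ± 0.32 (log2, SE, adjusted p = 0.856 for each). PFKFB4 had a difference of 0.76 ± 0.32 and PDK3 of 0.27 ± 0.12 (log2, SE, adjusted p = 0.856 for each). ENO1, GAPDH, TPI1 and TALDO1, which rose in both genotypes, had differences between -0.15 and -0.05.

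**Figure D5:**
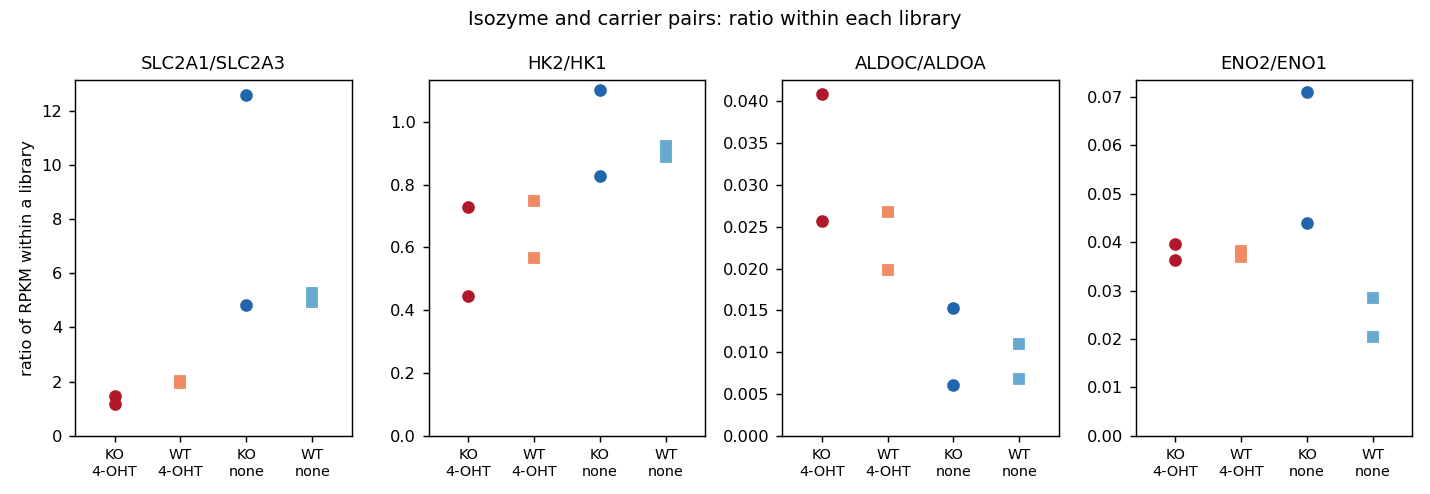
Ratio of the RPKM of 2 isozymes or carriers within each library, with 1 point per clone, for KO and WT clones with 4-OHT and then without it (each vertical axis starts at 0). SLC2A1/SLC2A3 and HK2/HK1 are lower with 4-OHT in both genotypes and ALDOC/ALDOA is higher, while ENO2/ENO1 is lower with 4-OHT in KO clones and higher in WT clones.

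The ratio of ENO2 to ENO1 was 0.0397 and 0.0363 in KO clones with 4-OHT, against 0.0710 and 0.0439 without it. In WT clones it was 0.0381 and 0.0369 with 4-OHT, against 0.0205 and 0.0284 without it. With 4-OHT the KO and WT clones overlapped, and without it both KO clones were above both WT clones. With 2 clones a group no permutation p could go below 0.333, so ratios are given without a test.

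Neighbouring pathways, in lists written with earlier results of these data known, were counted in the same way. Of all genes, 17.3% were higher and 10.7% lower with 4-OHT in KO, and 13.7% were higher and 8.18% lower in WT. These shares apply to each list below. No gene of these lists passed the test of the difference between genotypes. In the tricarboxylic acid cycle, 6 of 14 genes tested were higher with 4-OHT in KO clones and 7 of 14 in WT clones, with none lower. Among them IDH3B had log2 fold changes of 0.71 ± 0.18 in KO and 1.19 ± 0.18 in WT, and SDHB, a subunit of succinate dehydrogenase, of 1.43 ± 0.25 in KO and 0.96 ± 0.25 in WT (SE). Of 10 genes of pyruvate entry into mitochondria, 4 were higher in each genotype and none was lower. MPC2, a subunit of the mitochondrial pyruvate carrier, had log2 fold changes of 1.30 ± 0.20 in KO and 0.91 ± 0.20 in WT (SE, adjusted p = 0.00365 and 0.0162). The redox shuttles had 2 of 9 genes higher in each genotype, with GOT1, the cytosolic aspartate aminotransferase, at 1.20 ± 0.25 in both (log2, SE).

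Of the branches that leave glycolysis, the hexosamine branch showed UAP1, which makes UDP-N-acetylglucosamine, at 9.43 and 8.15 RPKM in KO clones with 4-OHT, against 0.983 and 1.34 RPKM without it. In WT clones UAP1 had 8.49 and 6.51 RPKM with 4-OHT, against 0.849 and 1.12 RPKM without it. UAP1 rose by 2.18 ± 0.22 in KO and 2.09 ± 0.22 in WT (log2, SE, adjusted p = 0.000773 and 0.00103). OGT, the enzyme that uses this sugar, fell by 1.11 ± 0.26 in KO and 1.24 ± 0.26 in WT (log2, SE, adjusted p = 0.0182 and 0.0141). In all, 2 of 7 hexosamine genes were higher and 1 lower in KO, and 1 was higher and 1 lower in WT.

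In the serine branch 2 of 6 genes were higher in KO, MTHFD2 at 1.28 ± 0.18 and PHGDH at 0.77 ± 0.22 (log2, SE), and 0 of 6 in WT. Of 11 glycogen genes 2 were higher and 1 lower in KO and 1 was higher in WT, with PYGB, the brain-type glycogen phosphorylase, at 1.72 ± 0.21 in KO and 1.28 ± 0.21 in WT (log2, SE). Of 8 further carriers, SLC16A4 and SLC2A12 were lower in KO (log2 fold change -0.86 ± 0.21 and -0.54 ± 0.14, SE) and 0 passed in WT. Both were lower in WT clones too, without overlap. SLC16A4 in WT clones had 1.01 and 1.26 RPKM with 4-OHT, against 2.30 and 2.15 RPKM without it. SLC2A12 in WT clones had 0.1855 and 0.1062 RPKM with 4-OHT, against 0.3668 and 0.6725 RPKM without it. In KO clones with 4-OHT SLC2A12 rested on 0 and 11 reads. TIGAR, which lowers fructose 2,6-bisphosphate, was the 1 of 4 side enzymes that passed, at 1.19 ± 0.18 in KO and 0.97 ± 0.18 in WT (log2, SE, adjusted p = 0.00342 and 0.00874). Of 3 fructose and polyol enzymes, AKR1B1, the aldose reductase, was higher in both genotypes and TKFC was lower in WT.

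Among regulators of these genes, MYC had 25.1 and 27.1 RPKM in KO clones with 4-OHT, against 9.67 and 7.99 RPKM without it. In WT clones MYC had 17.5 and 25.9 RPKM with 4-OHT, against 8.35 and 6.25 RPKM without it. MYC rose by 1.47 ± 0.24 in KO and 1.44 ± 0.24 in WT (log2, SE, adjusted p = 0.00492 and 0.00603). MLX, the partner of the glucose-sensing factors, rose by 2.24 ± 0.25 in KO and 1.29 ± 0.25 in WT (log2, SE, adjusted p = 0.00106 and 0.0102). ARRDC4, a relative of TXNIP that shares its glucose response, fell in KO by 1.54 ± 0.38 (log2, SE, adjusted p = 0.0216). In all, 3 of 9 regulators were higher and 1 lower in KO, and 2 were higher in WT.

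Of 16 genes of the hypoxia-inducible factor system and its other targets, 2 were higher and 1 lower in KO clones, and 1 was higher and 1 lower in WT clones. BNIP3, a mitophagy receptor induced by hypoxia, rose by 1.32 ± 0.25 in KO and 1.04 ± 0.25 in WT (log2, SE, adjusted p = 0.00825 and 0.0244). EPAS1 (HIF-2 alpha) fell by 0.54 ± 0.16 in KO and 0.70 ± 0.16 in WT (log2, SE, adjusted p = 0.0454 and 0.0231). Over all genes tested, 17.3% were higher and 10.7% lower in KO, and 13.7% were higher and 8.18% lower in WT.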

How the data were processed

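Ribosome footprints of 8 libraries were deposited by the authors in 2 tables, with 4-OHT (11079 genes) and without (11546 genes); 10685 genes are in both. STAR and GRCh38 are named in the submitters' processing notes, without roles; their annotation and read counter were not stated in the sources used. The deposited values carry no stated unit and were read as RPKM over the whole gene span, because value times span summed to nearly the same total in each library. Spans came from RefSeq (GRCh38.p14), by gene identifier for 10884 and 11345 genes and for 10980 and 11447 in all; 99 genes of each table had none and were left out. Whole reads were recovered from the step between low values (up to 12 reads; 78.0 to 83.0% within 0.1 of a whole number), which gave the depths quoted. Where the authors' span differs from RefSeq's, a gene's recovered reads are approximate.

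Genes for which 2 or more libraries had 10 or more recovered reads were tested on log2(RPKM + 1) with limma-trend (limma 3.58.1, R 4.3.3), with Benjamini-Hochberg adjustment over all genes tested and a threshold of 0.05. Changes with 4-OHT and their difference used all 8 libraries (4 residual degrees of freedom), since each library is scaled to its own total; KO and WT were compared within a table (2 residual degrees of freedom). Alternatives were a pseudocount of 0.1, no filter, median-ratio scaling, limma-voom on recovered reads, clone as a block, other sets of libraries, and each library left out; removal of the span trend, and voom with the block, were chosen after the tables were seen. The fits were also run on simulated reads with a single fixed spread and planted changes of a single size. That simulation had no clone differences and no span trend, so it does not show how the fits behave on these libraries.

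Clones have the same numbers in both tables, so the pairing comes from the design; deviations of a genotype's clones correlated between tables with r = 0.006 in KO and 0.146 in WT over 8685 genes. Intervals and floors (3 reads) cover counting error only. Listed genes and neighbouring lists were chosen with earlier results of these data known. Values are given for listed genes that passed a comparison, their isozymes and the rate-setting steps, and for up to 2 called genes of each neighbouring list and comparison. Levels per codon were planned and not made, as no coding lengths were used here. The counts of 1 neighbouring list are not reported here.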

Additional observations from a re-analysis of the deposited data

Results flagged for a closer look

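RPE, the ribulose 5-phosphate epimerase, was picked because its values moved with 4-OHT in opposite directions in the clones of the 2 genotypes. It was lower with 4-OHT in both KO clones and higher in both WT clones, with a difference of changes of -1.35 on the log2 scale (KO minus WT). The KO groups with and without 4-OHT overlapped. The share of all genes with such opposite directions was not counted. The test of that difference did not pass (adjusted p = 0.856, limma-trend). The lowest value, 0 RPKM from 0 reads, came from KO clone 66 with 4-OHT, the shallowest library, and the part of depth in the result was not tested.

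The ratio of ENO2 to ENO1 within a library, averaged over clones and taken with 4-OHT over without, was 0.662 in KO clones and 1.53 in WT clones. Each KO clone moved down and each WT clone moved up, and the pair was picked for this pattern. The ENO2 values rested on 15 and 82 reads in KO clones 66 and 69 with 4-OHT, against 37 and 45 without it. In WT clones 15 and 54 they rested on 144 and 52 reads with 4-OHT, against 18 and 14 without it. The part of counting error in these directions was not tested. The difference between the ratios was not tested; for ENO2 alone it was -0.90 ± 0.32 (log2, SE, adjusted p = 0.856).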

How the results depend on the processing

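No value turned its sign across a call in 12 alternatives of the 4-OHT comparisons, and of 1684 gene values under alternatives 1593 kept their side of the threshold, 65 fell short of it and 26 newly passed. The count of higher genes with 4-OHT in KO clones (16) was 9 with only the 4 KO libraries in the fit (9.84% of all genes) and 10 to 16 with a library left out (7.69 to 22.9% of all genes). In WT clones (15) it was 6 to 11 with a library left out (5.62 to 8.27% of all genes). The count of lower genes in KO (2) was 1 to 3 with a library left out (5.23 to 17.6% of all genes), and in WT (0) it was 1, SLC2A1, with median-ratio scaling, with limma-voom on recovered reads without or with the replicate block, and with the span trend removed (10.6 to 13.1% of all genes). For KO against WT with 4-OHT, limma-voom called 1 gene lower (TXNIP), and leaving out a library gave 0 to 1 higher (0 to 3.77% of all genes) and 0 to 1 lower (0 to 9.36%). With clone as a replicate block, 16 genes were higher and 2 lower in KO (14.3 and 9.05% of all genes) and 12 were higher and 0 lower in WT (11.4 and 6.72% of all genes), and the comparisons of KO with WT and of the 4-OHT changes kept 0; the block ended the WT calls of PFKFB3, PGK1 and PDHA1 and no other call. The causes were not tested, beyond the smaller number of libraries in the fits that leave some out. The median log2 fold change of all genes was 0.22 in both genotypes by limma-voom, against 0.05 in KO and 0.06 in WT as deposited, so small changes depend on the scaling. Of the 28 genes, PFKFB4, PDK3, ALDOC, RPE and RPIA had the fewest recovered reads over the 8 libraries.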
